A study of Heterocephalus glaber with 2 samples.

Results

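The genes described here build and control the machinery by which cells kill themselves: the BCL2 family, the caspases, the inhibitor of apoptosis proteins (IAPs) and their partners in apoptosis, necroptosis and pyroptosis. Of 46 listed genes, 40 were found by their symbol among the 37520 genes of the deposited data. Another 3 were found under other names, *Gsdme* as *Dfna5* (its older symbol), *Casp12* as Caspase-12 and *Cycs* as LOC101718508, and they are described apart and not counted. *Bcl2l2*, *Casp1* and *Xiap* were not matched and are not analysed here. Sides were set from what each gene is known to do, as 10 anti-death genes, 32 pro-death genes and 4 genes whose side is uncertain.

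RNA was sequenced from naked mole-rat (NMR; *Heterocephalus glaber*) skin fibroblasts (NSFs), primary adult cells, in 1 library of control knockdown cells and 1 library of *β-catenin* knockdown cells. The *shControl* cells carried an empty lentiviral vector without a hairpin, and the *shβ-catenin* cells carried the same vector with a single hairpin against *β-catenin*. Both cultures were selected with puromycin for transduced cells, replated and harvested near confluency. The study's standard culture of NMR fibroblasts was hypoxic, and the oxygen level of these cultures is not given separately. The study asked how *β-catenin* maintains cholesterol-rich lipid droplets and keeps NSFs from a senescence-like state.

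In mammals, apoptosis through mitochondria starts when BH3-only proteins neutralize the anti-death BCL2 proteins and free BAX and BAK to open the outer mitochondrial membrane. Cytochrome c then escapes and assembles with APAF1 into the apoptosome, which activates caspase 9, and IAPs and FLIP hold caspases in check. Senescent human and mouse fibroblasts are known to resist apoptosis, largely through proteins of the anti-death BCL2 group. Necroptosis and pyroptosis are lytic deaths carried out by MLKL and by gasdermins.

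*Ctnnb1*, the target of the hairpin, was listed at 530 FPKM (fragments corrected for the length of the exons and for the number of fragments mapped) in *shControl* and at 69.0 FPKM in *shβ-catenin* cells, a 7.69-fold lower value. All 10 fibroblast markers were at 1 FPKM or more in both libraries, with 8 lower and 2 higher in *shβ-catenin* cells and a sum of 11017 FPKM against 8880 FPKM after knockdown. Of 7 measured keratinocyte markers, 1 reached 1 FPKM in either library, and of 8 endothelial markers none did in *shControl* and 1 did in *shβ-catenin* cells. The log2 fold-change of a gene was taken after adding 0.1 FPKM to both values, with *shControl* as the denominator, which understates differences in low genes, whereas plain folds are simple FPKM ratios. Each condition has a single library, so replicate error cannot be had and no difference below was tested. Read counts are not given, but the ratios of low genes show that the *shControl* library held 1.202 times the fragments of the other.

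Most of the cell death genes were listed at 1 FPKM or more, and they differed between the libraries about as much as other such genes. Genes averaging 1 FPKM or more over the 2 libraries are called expressed genes from here on. They include 34 of the 40, beside 13097 of all 37520 genes, and all 34 also reached 1 FPKM in each library. Their means ran from 1.33 FPKM (*Bmf*) to 114 FPKM (*Bax*). None of the 34 differed by more than 2-fold, against 5.32% of all 13097 expressed genes past 2-fold and 0.886% past 4-fold. Past 1.5-fold there were 4 genes, 11.8% of the 34 beside 15.2% of all expressed genes. Of the 4, 2 were higher and 2 lower, beside 8.22% and 7.02% of all expressed genes. These shares are near the background. Among genes averaging at least 5 FPKM, the same 4 were past 1.5-fold out of 30, 13.3% beside 9.87% of all such genes, so the order of the shares depends on the filter. The median log2 fold-change of the 34 was −0.0072 and that of all 13097 expressed genes −0.010, with 6372 of them higher and 6725 lower. The median absolute log2 fold-change was 0.20 for the 34 and 0.23 for all expressed genes. At a mean of at least 5 FPKM it was 0.21 for the 30 and 0.19 for all such genes, so this order also depends on the filter.

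**Figure D1:**
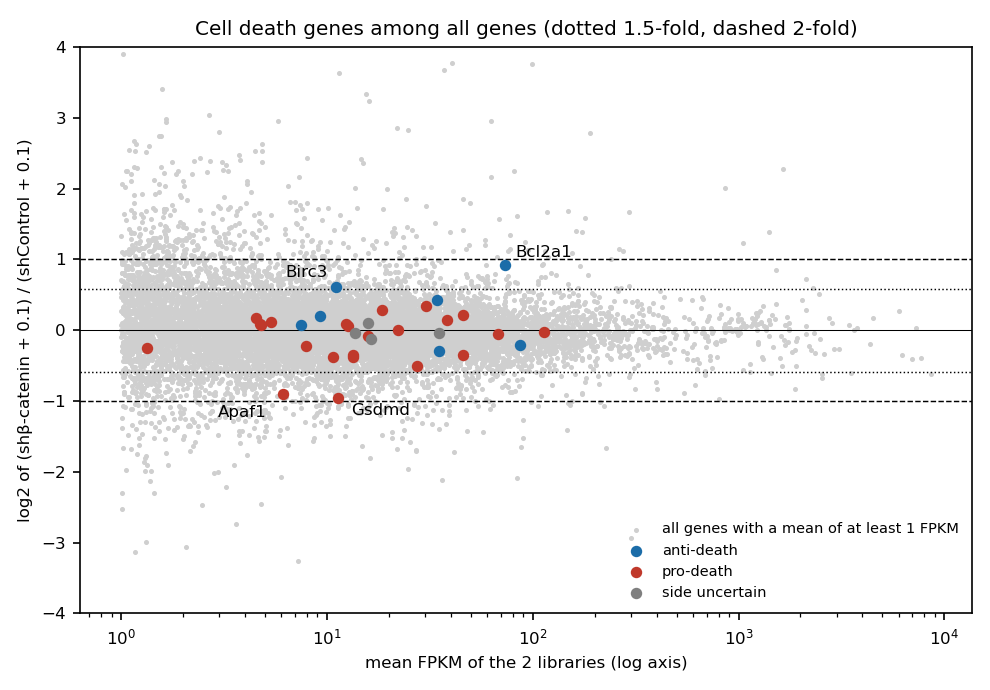
Mean FPKM of the 2 libraries (log axis) against the log2 fold-change of *shβ-catenin* over *shControl*, with all expressed genes in grey and the 34 cell death genes in color by side. Dotted lines mark 1.5-fold and dashed lines 2-fold, and 28 of the grey genes lie outside the drawn range. The 34 genes all lie between the dashed lines, and the 4 beyond the dotted lines are *Bcl2a1*, *Birc3*, *Apaf1* and *Gsdmd*.

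The anti-death and pro-death genes are given apart. Of the 7 expressed anti-death genes, *shβ-catenin* cells had 5 at a higher and 2 at a lower level, and the median log2 fold-change was 0.20. Both anti-death genes past 1.5-fold were higher, and *Bcl2*, 1.89-fold lower, is not counted because its mean was under 1 FPKM. The anti-death median was 0.14 when genes below 1 FPKM were kept and 0.080 when *Bcl2l12* and *Dffa* were counted as anti-death. For comparison, 6372 of all expressed genes were higher and 6725 lower, with 8.22% higher and 7.02% lower past 1.5-fold. Of 23 expressed pro-death genes, 11 were higher and 12 lower and the median was −0.019, and both genes past 1.5-fold were lower. The pro-death median was 0.034 when genes below 1 FPKM were kept. It was 0.015 when the libraries were scaled to their upper quartile, which moved the median of all expressed genes to 0.023 alike.

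The level of each gene in both libraries is plotted by role.

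**Figure D2:**
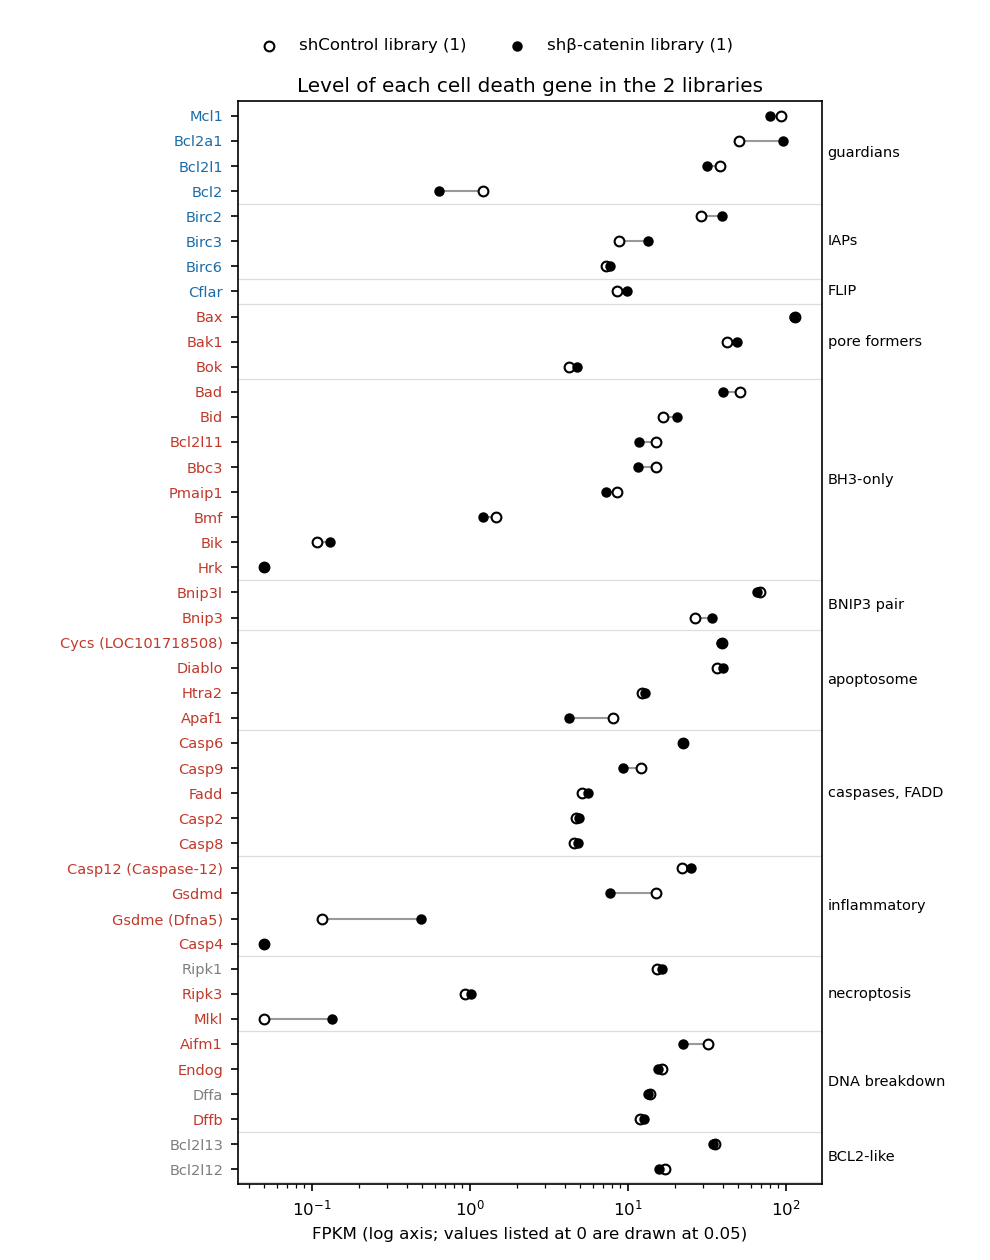
FPKM (log axis) of the 43 cell death genes found, in the *shControl* library (open circles) and the *shβ-catenin* library (filled circles), by role, with anti-death names in blue, pro-death names in red and names of uncertain side in grey. Values listed at 0 are drawn at 0.05. Of the 34 expressed genes 21 lie within 1.2-fold, beside 7419 of all 13097 expressed genes. The widest gaps at low levels belong to *Gsdme* (0.116 and 0.488 FPKM) and *Mlkl* (0 and 0.134 FPKM).

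The anti-death BCL2 proteins sit on mitochondria and bind both BH3-only proteins and BAX or BAK. *Bcl2a1*, which encodes A1 (BFL-1), was listed at 50.8 FPKM in *shControl* and at 95.8 FPKM in *shβ-catenin* cells, a 1.89-fold higher value. Its log2 fold-change of 0.91 was the highest of the 34 genes, and 3.96% of all expressed genes had a higher one. *Mcl1*, a short-lived survival protein, was listed at 92.8 FPKM in *shControl* and at 79.9 FPKM in *shβ-catenin* cells. *Bcl2l1*, which encodes BCL-XL, was listed at 38.6 FPKM and 31.6 FPKM, in the same order of libraries, a 1.22-fold lower value. *Bcl2*, the founding member of the family, had the lowest level of the 4 in both libraries, at 1.21 FPKM and 0.640 FPKM, a 1.89-fold lower value that is not counted above because the mean was under 1 FPKM. At the least 34 fragments in *shControl* and 15 in *shβ-catenin* cells lie behind these values. These counts give the ratio over *shControl* an exact 95% interval (Clopper-Pearson) from 0.268 to 1.0004, which covers counting error only. The interval barely includes no difference. Multiples of the pair would give the same ratio and a narrower interval, so whether no difference is included is not settled.

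FPKM is scaled to length, so levels of these genes can be summed within a library. The 4 anti-death BCL2 genes summed to 183 FPKM in *shControl* and to 208 FPKM in *shβ-catenin* cells. *Bcl2a1* made up 27.7% of the first sum and 46.1% of the second, and *Mcl1* 50.6% and 38.4%. Among the 4 anti-death BCL2 genes found, which leave out *Bcl2l2*, the most abundant transcript was thus *Mcl1* in *shControl* and *Bcl2a1* in *shβ-catenin* cells. Without *Bcl2a1* the sum was lower in *shβ-catenin* cells, at 112 FPKM against 133 FPKM, so the higher total came from this gene.

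The pore formers were close to even. *Bax*, the most abundant of the 34 genes, was listed at 115 FPKM in *shControl* and at 113 FPKM in *shβ-catenin* cells. *Bak1*, which encodes the other main pore former, was listed at 42.4 FPKM and 49.1 FPKM. *Bok*, a pore former with a less settled role, was listed at 4.25 FPKM and 4.78 FPKM. The summed level of the anti-death BCL2 genes was 1.14 times that of the pore formers in *shControl* and 1.24 times in *shβ-catenin* cells. Without *Mcl1* and *Bax*, the highest gene of each side, these ratios were 1.94 and 2.38. Without *Bcl2a1* they were 0.821 and 0.671, so the direction of the difference in the balance rests on that gene.

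**Figure D3:**
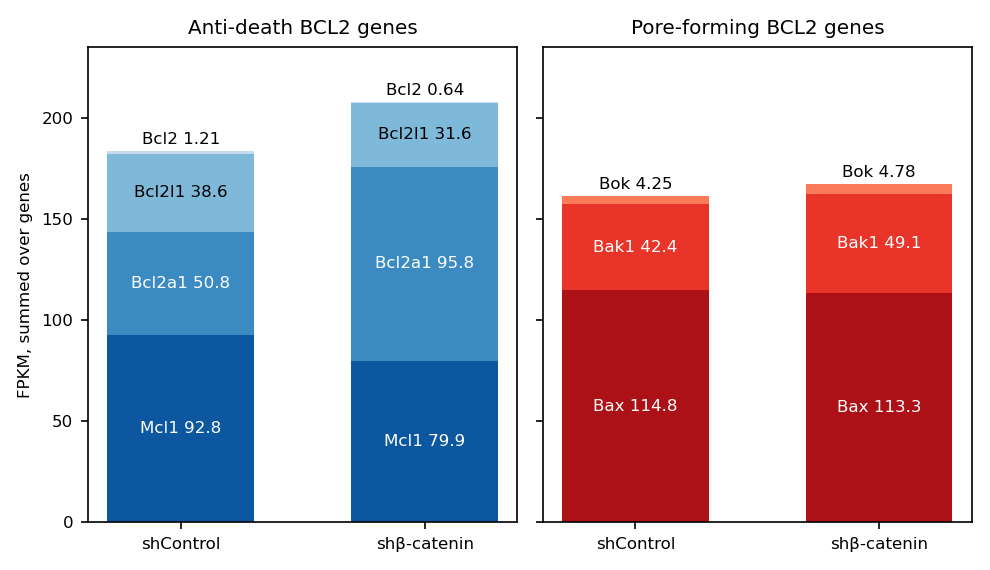
FPKM of the anti-death (left, blue) and pore-forming (right, red) BCL2 genes, stacked in each of the 2 libraries, with the value of each gene printed. *Bcl2a1* takes 50.8 FPKM of the left *shControl* column and 95.8 FPKM of the left *shβ-catenin* column, and *Bax* stands at 115 and 113 FPKM.

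*Bcl2a1* is known from human and mouse as a target gene of NF-κB that is abundant in leukocytes, and the mouse carries several copies of it, whereas the RefSeq gene table used here holds 1 entry. Markers of leukocytes were therefore read in the same libraries. Of 14 markers, 9 had a higher value in *shβ-catenin* cells, 2 a lower one and 3 a value of 0 in both libraries, and 5 in *shControl* and 6 in *shβ-catenin* cells reached 1 FPKM. Among all expressed genes 6372 were higher and 6725 lower. *Aif1*, counted as higher at 0.368 and 0.442 FPKM, had a ratio that equal numbers of fragments would give. *Csf1r* (0.0228 and 0.0547 FPKM) and *Itgam* (0.0215 and 0.0516 FPKM), also counted as higher, lay under 0.1 FPKM, where a direction means little. The levels of the 14 markers summed to 150 FPKM in *shControl* and to 318 FPKM in *shβ-catenin* cells. Most of this sum came from *Ctss*, a lysosomal protease, at 75.7 and 106 FPKM, *Lyz*, the lysozyme gene, at 41.5 and 127 FPKM, *Cd14*, a co-receptor for lipopolysaccharide, at 17.4 and 49.9 FPKM, and *Cd68*, a marker of macrophage lysosomes, at 11.9 and 31.1 FPKM. *Ptprc*, the pan-leukocyte antigen CD45, was among those at 0, and *Tyrobp*, a signaling adaptor of myeloid cells, was 1 of the 2 lower markers, at 0.828 and 0.498 FPKM. The part of leukocyte transcripts in the *Bcl2a1* level was not tested. In bulk RNA, more cells of a type and more RNA per cell cannot be told apart.

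IAPs block caspases or tag death proteins for degradation with ubiquitin. All 3 that were found had a higher value in *shβ-catenin* cells, beside 6372 higher and 6725 lower of all expressed genes. Of the 3, *Birc3* and *Birc2* were past 1.2-fold and *Birc6* was within it, whereas 43.4% of all expressed genes passed 1.2-fold in either direction. *Xiap* was not matched. *Birc3*, which encodes cIAP2 and is also a known NF-κB target gene, was listed at 8.80 FPKM in *shControl* and at 13.4 FPKM in *shβ-catenin* cells, a 1.53-fold higher value. With 1 FPKM added to both values in place of 0.1, its log2 fold-change was 0.56, which is under 1.5-fold and leaves *Bcl2a1* as the only anti-death gene past it. *Birc2*, which encodes its relative cIAP1, was listed at 29.3 FPKM and 39.6 FPKM, a 1.35-fold higher value. *Birc6*, a giant IAP with ubiquitin ligase activity, was listed at 7.25 FPKM and 7.67 FPKM. The 3 genes summed to 45.4 FPKM in *shControl* and to 60.7 FPKM in *shβ-catenin* cells. *Cflar*, whose product FLIP restrains caspase 8 at death receptors, was listed at 8.62 FPKM and 9.88 FPKM.

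The BH3-only genes encode the sensors that carry stress signals to the BCL2 proteins. Of 8 such genes 6 were expressed, and *shβ-catenin* cells had 5 of these at a lower and 1 at a higher level, all within 1.5-fold, beside the 6725 lower and 6372 higher of all expressed genes. *Bad*, the most abundant of them and controlled by survival kinases, was listed at 51.4 FPKM in *shControl* and at 40.3 FPKM in *shβ-catenin* cells. *Bbc3*, which encodes PUMA, a mediator of p53-driven death, was listed at 15.2 FPKM and 11.6 FPKM. *Bcl2l11*, which encodes BIM, a sensor of lost growth factor signals, was listed at 15.1 FPKM and 11.8 FPKM. These 3 differences were of like size, 1.28-fold, 1.31-fold and 1.28-fold lower.

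*Pmaip1*, which encodes NOXA, the partner that marks MCL1 for degradation, was listed at 8.60 FPKM in *shControl* and at 7.31 FPKM in *shβ-catenin* cells. *Bmf*, a sensor of cell detachment, was listed at 1.46 FPKM and 1.21 FPKM. The exception in direction was *Bid*, which caspase 8 cleaves to link death receptors to mitochondria, at 16.8 FPKM and 20.4 FPKM. *Bik*, which acts at the endoplasmic reticulum, was listed at 0.108 FPKM and 0.130 FPKM, a ratio that equal numbers of fragments would give. *Hrk*, best known from neurons, was listed at 0 in both libraries. Summed over the 8 genes, BH3-only transcripts came to 109 FPKM under *shControl* and to 92.8 FPKM under *shβ-catenin*. *Bnip3* and *Bnip3l*, atypical BH3 genes better known for mitophagy and for their response to low oxygen, were listed at 26.8 and 68.7 FPKM in *shControl* and at 34.1 and 66.3 FPKM in *shβ-catenin* cells.

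Downstream of the pore, *Apaf1*, the scaffold of the apoptosome, stood out from its partners. It was listed at 8.05 FPKM in *shControl* and at 4.24 FPKM in *shβ-catenin* cells, a 1.90-fold lower value, and 2.63% of all expressed genes had a lower fold-change. *Casp9*, the initiator caspase that the apoptosome activates, was listed at 12.1 FPKM and 9.32 FPKM, a 1.30-fold lower value. *Cycs*, read from its locus number through RefSeq, encodes cytochrome c and was listed at 39.4 FPKM and 38.7 FPKM. *Diablo*, which encodes the IAP antagonist SMAC, was listed at 36.6 FPKM and 40.4 FPKM. *Htra2*, a mitochondrial protease that also antagonizes IAPs, was listed at 12.3 FPKM and 12.9 FPKM. Of the apoptosome parts the scaffold was thus lower, the caspase less so, and cytochrome c about even.

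The other apoptotic caspases and the adaptor of death receptors were within 1.2-fold, a bound that 43.4% of all expressed genes passed. *Casp6*, an effector caspase, was listed at 22.3 FPKM in both libraries. *Casp8*, the initiator at death receptors, was listed at 4.57 FPKM in *shControl* and at 4.86 FPKM in *shβ-catenin* cells, and *Fadd*, the adaptor that recruits it, at 5.18 FPKM and 5.59 FPKM. *Casp2*, an initiator linked to DNA damage and faulty mitosis, was listed at 4.68 FPKM and 4.91 FPKM.

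Among genes of pyroptosis, *Gsdmd*, which encodes the gasdermin cut by inflammatory caspases, had the lowest fold-change of the 34 genes. It was listed at 15.1 FPKM in *shControl* and at 7.69 FPKM in *shβ-catenin* cells, a 1.96-fold lower value that 2.22% of all expressed genes undercut. *Gsdme*, the gasdermin cut by an executioner caspase in human and mouse, went the other way at a low level. It was listed as *Dfna5* at 0.116 FPKM and 0.488 FPKM, a 4.21-fold higher value, and its ratio is not one of whole fragments up to a total of 60, so no counting interval is given. The study lists this gene among those it called higher on the same libraries, so its direction is not independent evidence. *Casp12*, a relative of the inflammatory caspases linked to endoplasmic reticulum stress in mouse, was listed at 22.1 FPKM and 25.3 FPKM. *Casp4*, in human a sensor of bacterial lipopolysaccharide, was listed at 0 in both libraries, and a listed 0 is no proof of absence.

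The necroptosis kinase gene *Ripk3* was listed at 0.935 FPKM in *shControl* and at 1.02 FPKM in *shβ-catenin* cells. At the least 11 and 10 fragments lie behind these values, with an exact 95% interval of the ratio from 0.416 to 2.84. *Mlkl*, the membrane-breaking effector that RIPK3 activates, was listed at 0 and 0.134 FPKM. Both genes were thus at or below about 1 FPKM, whereas *Ripk1*, which serves both survival and death at the TNF receptor, was listed at 15.3 FPKM and 16.4 FPKM.

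Genes of DNA breakdown were mostly even. *Aifm1*, which encodes AIF, a mitochondrial flavoprotein that can move to the nucleus in dying cells, was listed at 32.1 FPKM in *shControl* and at 22.5 FPKM in *shβ-catenin* cells, a 1.42-fold lower value. *Endog*, a mitochondrial nuclease, was listed at 16.4 FPKM and 15.5 FPKM. *Dffb*, the caspase-activated DNase, was listed at 12.03 FPKM and 12.73 FPKM, and *Dffa*, its inhibitor and folding partner, at 13.9 FPKM and 13.5 FPKM. The BCL2 relatives *Bcl2l12* and *Bcl2l13*, whose sides are unsettled, were listed at 17.2 and 35.6 FPKM in *shControl* and at 15.7 and 34.7 FPKM in *shβ-catenin* cells. All 4 genes of uncertain side, *Ripk1*, *Dffa*, *Bcl2l12* and *Bcl2l13*, were within 1.2-fold, a bound that 43.4% of all expressed genes passed.

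Of 56 other genes of the death pathways, chosen in 3 lists, 52 were found and 45 were expressed. Past 2-fold 2 of these were higher and none lower, beside 3.27% and 2.05% of all expressed genes. For the counts by list, 6372 of all expressed genes were higher and 6725 lower, 15.2% were past 1.5-fold, and their median log2 fold-change was −0.010. Among 13 genes of death receptors, their ligands and adaptors, 7 were higher and 6 lower, and the median log2 fold-change was 0.012. *Tnfsf10*, which encodes the death ligand TRAIL, had the largest difference among the 13, being listed at 32.3 FPKM in *shControl* and at 18.0 FPKM in *shβ-catenin* cells, a 1.79-fold lower value. *Tnfrsf21*, which encodes death receptor 6, followed at 30.4 FPKM and 20.7 FPKM. In the list of 27 other apoptosis regulators 12 were higher and 15 lower, all within 1.5-fold, and the median was −0.035. The largest differences among the 27 were in *Dapk1*, a death-associated kinase, at 5.68 and 3.83 FPKM, and *Siva1*, a pro-death adaptor, at 73.2 and 50.1 FPKM.

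The inflammasome list held both genes past 2-fold. *Il1b*, the cytokine that leaves cells through gasdermin D pores, was listed at 5.42 FPKM in *shControl* and at 75.6 FPKM in *shβ-catenin* cells. *Nlrp3*, the inflammasome sensor, was listed at 2.36 FPKM and 6.29 FPKM, a 2.66-fold higher value. *Gsdmd* thus differed in the opposite direction to the sensor and the cytokine. Of the 5 expressed genes of this list 3 were higher and 2 lower, beside 6372 and 6725 of all expressed genes. The median log2 fold-change of the 5 was 0.35. *Il1b* was named by the study from these libraries and is not independent evidence of a direction.

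**Figure D4:**
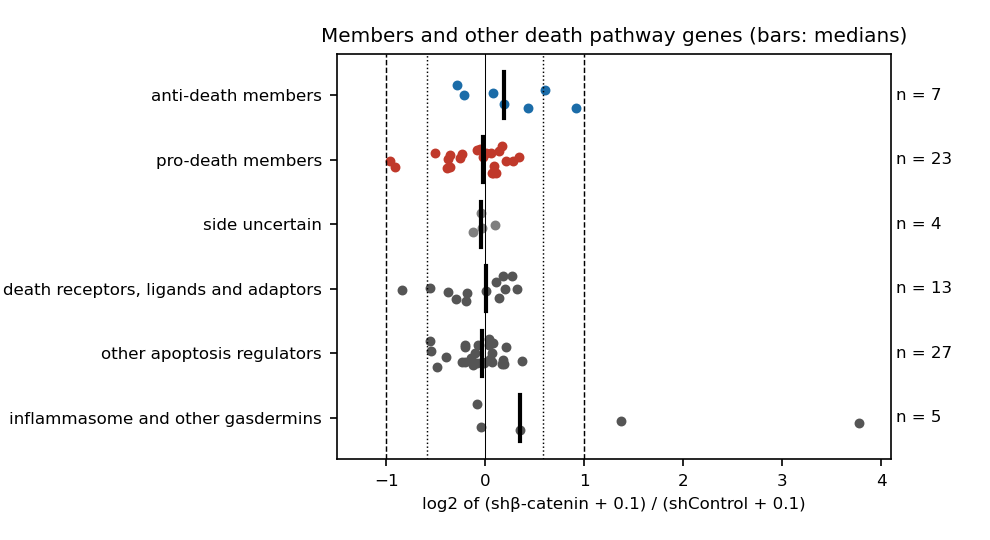
Log2 fold-change of *shβ-catenin* over *shControl* (x axis) for the 7 anti-death, 23 pro-death and 4 uncertain genes and for 3 lists of other death pathway genes with 13, 27 and 5 genes. Points are expressed genes, spread vertically for visibility, bars are medians, and dotted and dashed lines mark 1.5-fold and 2-fold. Only *Nlrp3* and *Il1b*, in the inflammasome list, lie beyond the dashed lines.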

How the data were processed

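The deposited values are FPKM, 1 library per condition, used as the authors gave them. According to the study's methods and the submitters' processing notes, stranded mRNA libraries were mapped to the NMR genome with TopHat2 2.0.13, Bowtie2 2.2.3 and SAMtools 0.1.19, and FPKM were calculated with Cufflinks 2.2.1. The gene annotation is not given in the sources used here. Members and lists were chosen with earlier results of these data known. Sides and roles were assigned from general knowledge. Counts and medians were restricted to genes averaging 1 FPKM or more (expressed genes), with a pseudocount of 0.1 and thresholds of 1.5-fold and 2-fold, beside the 4-fold of the study. All genes of the main list are reported. Other genes of the lists are named when expressed and either past 2-fold or among the 2 largest differences of their list. The 7 genes of these lists found below 1 FPKM on average are not named, whatever their fold. *Ctss*, *Lyz*, *Cd14*, *Cd68*, *Aif1*, *Csf1r*, *Itgam*, *Ptprc* and *Tyrobp* were picked from the fixed marker list once their values were known.

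The relative depth was read from 5239 genes below 1 FPKM in each library, as their commonest ratio, found in 701 of them within 0.002%. Whole fragments are the smallest pair, up to a total of 60, that gives the ratio within 0.005%. This tolerance was chosen after the data were seen. Such pairs were found for 68.3% of 5649 genes with a mean under 1 FPKM, against 1.08% with the depth shifted by 1.4%. Multiples of a pair give the same ratio, so a pair is a lower limit of the counts and its interval is the widest. The depth behind higher values is unknown. Symbols were matched to the RefSeq gene table of assembly H.glaber_assembly_v1.0, another build than that of the data, so no coordinates are given. The methods were tested on simulated data. Scripts ran in Python 3.11.15 with scipy 1.17.1, pandas 2.3.3, matplotlib 3.10.9 and numpy 2.4.6.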

Additional observations from a re-analysis of the deposited data

How the results depend on the processing

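The count of genes past 2-fold was 0 with a pseudocount of 0.01 or 1, with both scalings, at a mean of at least 5 FPKM, at 4-fold, and with the 3 genes found under other names added, a choice made after the data were seen. It was 1 without the filter on low values (*Mlkl*) and 4 at a 1.5-fold threshold. The 3 added genes were held to the filter, and the unfiltered count left them out. Among them *Gsdme*, with a mean of 0.302 FPKM, had a log2 fold-change of 1.45, which is past 2-fold. The anti-death median of 0.20 ranged from 0.14 to 0.23 over these settings and was 0.080 when *Bcl2l12* and *Dffa* were counted as anti-death. Without *Mcl1* and *Bax*, the highest gene of each side, the anti-death to pore-former ratio was 1.94 in *shControl* and 2.38 in *shβ-catenin* cells. Median ratio and upper quartile scaling shift the log2 fold-changes of expressed genes by about 0.011 and 0.034, and those of genes near 0 by less, and upper quartile scaling turns the sign of *Bax* and *Bcl2l13*. At a mean of at least 5 FPKM, 2.71% of all genes passed 2-fold. No paired analysis was possible because each condition has 1 library, and no library could be left out. Fragment counts, and with them the counting error, are unknown above a mean of 1 FPKM.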
